A study of Mus musculus with 12 samples.

Results

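The mouse genes named Zfp900 to Zfp999 belong to the zinc finger protein genes, whose products carry tandem C2H2 fingers that bind DNA. A gene was taken as a member when its symbol in either of the authors' result tables was exactly Zfp and a number in this range. This gave 34 genes out of 55335 gene rows in the count tables. Many genes of this number range code for KRAB zinc finger proteins, a family that has expanded in rodents. The KRAB domain recruits the corepressor Trim28 and with it the histone methyltransferase Setdb1, and many such proteins silence endogenous retroviruses and other transposable elements. The fingers are coded by repeated sequence, and such repeats have been described in earlier work as coding-sequence sites that miR-181 can bind.

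Thymocytes, the developing T cells of the thymus, were taken from mice grown to 6 weeks of age, isolated with 70 µm strainers and kept from then on in buffered saline containing cycloheximide at 0.1 mg/ml, a drug that holds ribosomes in place on mRNA. The groups were 3 wild-type (WT) RNA-seq libraries, 3 RNA-seq libraries from knockouts (KO) of the miR-181a/b-1 gene pair, and 3 footprint libraries of each genotype. The study's title places its question in where miR-181 acts on transcripts in the thymus, coding sequence included. The labels give no strain and do not say which RNA-seq library shares a mouse with which footprint library. Libraries held 4479182 to 8180286 reads in genes in RNA-seq and 4069968 to 17859770 in footprints, KO replicate 3 being the lowest of the latter. Values below are CPM (read counts scaled by TMM-adjusted library totals), and a gene was called at an edgeR FDR under 0.05. The row of Mir181a-1, one of the deleted genes, held 2898, 2370 and 1535 footprint reads in WT and 5, 16 and 4 in KO. In RNA-seq it held 25, 25 and 7 reads in WT and 16, 10 and 41 in KO, so it does not check the RNA-seq labels, and directions in RNA-seq below are by label. Mir181b-1 held 0 reads in all 12 libraries. Thymocyte markers summed to 13548 to 15684 CPM in RNA-seq, and all 13 had reads.

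In both assays, libraries of opposite genotype with the same number deviated from their group means in opposite directions. Their correlation across genes was between -0.98 and -0.96 in RNA-seq and between -0.99 and -0.98 in footprints. For different numbers it was 0.23 to 0.69 and 0.36 to 0.64. Deviations of the 3 libraries of a group sum to 0, so these positive values follow from the negative ones and add nothing separate. The sources used here do not say what the authors adjusted in these counts. The spread within a group may therefore not measure the spread between mice. Calls are from the plain fit and, where they depend on it, from a fit that blocks on replicate number (called blocked, or with the block). SE values are from the plain fit unless said otherwise and rest on the spread within groups. A small SE, or close values within a group, need not mean that the mice were alike.

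The 4 miR-181 family members share 1 seed, bases 2 to 8 of the miRNA, which pairs with TGAATGT in a target. They are shown because the knockout removes genes of miR-181a and miR-181b, whereas other gene copies of both, and those of miR-181c and miR-181d, lie elsewhere. Sequences are from RefSeq, with the seed in capitals.
mmu-miR-181a-5p: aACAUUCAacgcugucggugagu
mmu-miR-181b-5p: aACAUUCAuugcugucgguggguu
mmu-miR-181c-5p: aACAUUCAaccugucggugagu
mmu-miR-181d-5p: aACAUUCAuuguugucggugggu
They differ only outside the seed, and lengths run from 22 to 24 bases. Coding sequences of the zinc finger genes were not used here, so no count of matches to this seed is given.

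Footprints of 24 of 30 tested zinc finger genes lay above WT in KO, where 48.4% of all genes tested did. Of these differences 10 passed the test. Of the 34 genes, 30 passed the filter on low counts; those that rose (edgeR) were Zfp930, Zfp932, Zfp933, Zfp942, Zfp943, Zfp945, Zfp949, Zfp958, Zfp961 and Zfp971. None fell, with 0 lower calls under DESeq2 too. At an unadjusted p under 0.05 (edgeR) 1 gene was lower, where 2279 of 13509 genes were. Over all 13509 genes tested, 9.25% were called higher and 8.34% lower. With the replicate block 4 zinc finger genes rose, namely Zfp930, Zfp943, Zfp958 and Zfp961, where 1.89% of all genes were called higher. The median log2 fold change over the 30 was 0.28, against -0.01 over all genes. Footprints summed over the 34 genes were 230.5, 224 and 237 CPM in WT and 304, 309 and 292 CPM in KO, with no overlap. As these are bulk libraries, a changed share of cells and a changed amount per cell cannot be told apart. The authors' deposited table for footprints lists 29 members; 9 were marked higher in KO, where 6.25% of all listed genes were, and none as lower.

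**Figure D1:**
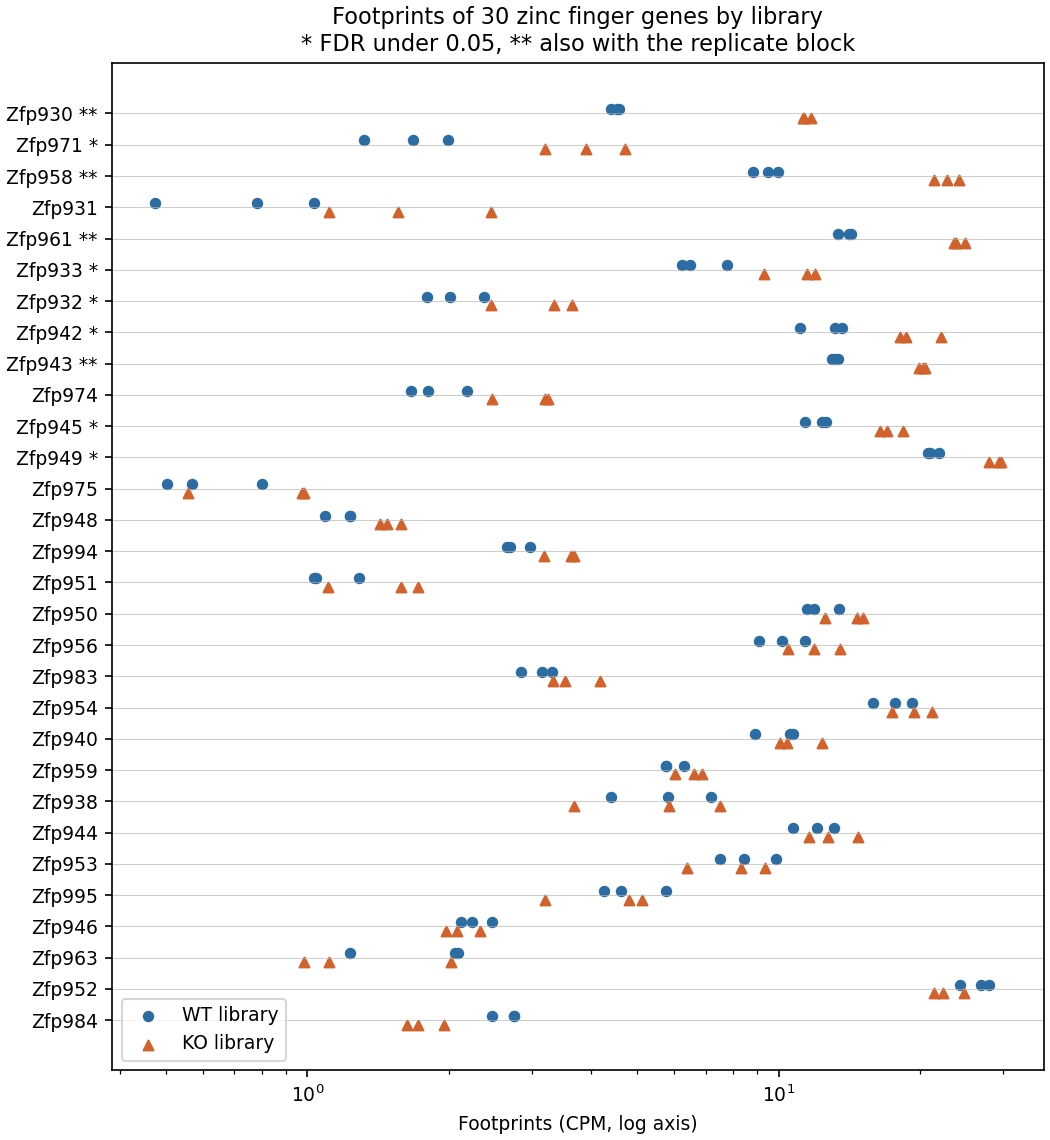
Footprint CPM (log axis) of the 30 tested zinc finger genes in each WT (circles) and KO (triangles) library, ordered by log2 fold change. The KO libraries lie above all WT libraries in 15 genes and below them in 1, Zfp984.

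The KO libraries lay above every WT library in 15 of the 30 genes, where 18.5% of all genes did so, and below in 1, where 19.6% did. Zfp984 was that 1 gene.

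Zfp930 (ENSMUSG00000059897.5) had 4.41, 4.59 and 4.55 footprint CPM in WT and 11.7, 11.3 and 11.3 in KO. All KO values were more than double every WT value, and libraries of a genotype lay close together in these adjusted counts. Its log2 fold change was 1.34 (SE 0.07 in the plain fit and 0.19 with the block, FDR 0.000235 by edgeR and 0.00417 once blocked). In RNA-seq it had 19.1, 21.5 and 12.4 CPM in WT and 28.2, 23.4 and 37.8 CPM in KO. The RNA groups did not overlap, but KO replicate 2 was close to the highest WT library. The log2 fold change in RNA was 0.78 (SE 0.25, edgeR FDR 0.115), which DESeq2 called (adjusted p 0.0224) as did edgeR with no low-count filter (FDR 0.0498). In the authors' deposited table Zfp930 was the 1 member listed as higher in RNA, with a log2 fold change of 0.55 and an adjusted p of 0.0431, where 2.46% of all listed genes were.

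Zfp958 (ENSMUSG00000058748.9) had 9.50, 8.84 and 9.95 footprint CPM in WT and 22.7, 24.1 and 21.4 in KO. The gap between the groups was far wider than the range in either. The log2 fold change was 1.29 (SE 0.07, FDR 0.000308 by edgeR and 0.00146 once blocked). In RNA-seq it had 10.5, 12.3 and 10.9 CPM in WT and 18.4, 15.6 and 18.1 CPM in KO, again without overlap. It was the 1 member called in RNA (log2 fold change 0.64, SE 0.10, edgeR FDR 0.0212), and this call was lost once blocked (FDR 0.262), by DESeq2 (adjusted p 0.074) and on leaving out any 1 library other than KO replicate 2 (FDR 0.0533 to 0.0867).

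Zfp961 (ENSMUSG00000052446.17) had 14.1, 13.4 and 14.2 footprint CPM in WT and 23.7, 24.9 and 23.6 in KO. The KO values were all higher, and nearly equal in these adjusted counts. The log2 fold change was 0.80 (SE 0.06, FDR 0.000608 by edgeR and 0.0123 once blocked). In RNA-seq it had 28.9, 31.2 and 28.0 CPM in WT and 32.0, 29.4 and 32.9 CPM in KO. These groups overlapped, and the log2 fold change was 0.10 (SE 0.08, edgeR FDR 0.466).

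Zfp943 (ENSMUSG00000053347.15) had 13.2, 13.0 and 13.4 footprint CPM in WT and 20.2, 20.4 and 19.9 in KO. The 3 libraries of each genotype were almost the same in these adjusted counts, which does not measure how alike the mice were. The log2 fold change was 0.62 (SE 0.05, FDR 0.00107 by edgeR and 0.0438 once blocked). In RNA-seq it had 24.8, 22.9 and 13.1 CPM in WT and 18.1, 18.9 and 28.4 CPM in KO. These groups overlapped: WT replicate 3 was the lowest and KO replicate 3 the highest of the 6 libraries. The log2 fold change in RNA was 0.14 (SE 0.28, edgeR FDR 0.811), and -0.36 without replicate 3 of both genotypes (FDR 0.0982).

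**Figure D2:**
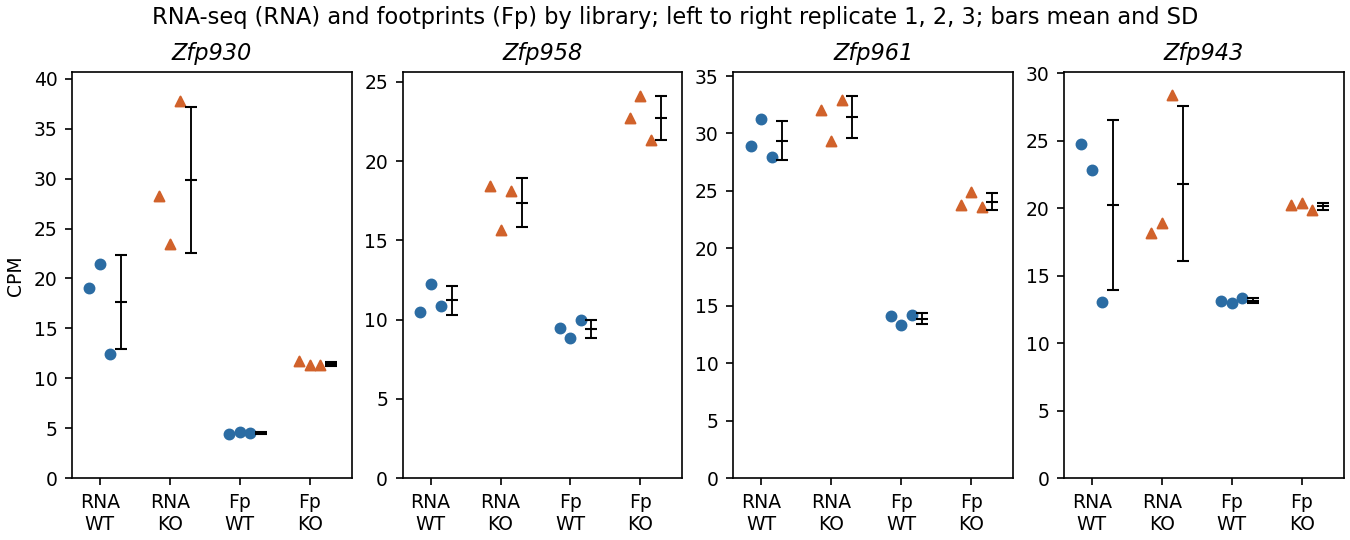
CPM of the 4 genes called in footprints with the replicate block, in RNA-seq (RNA) and footprints (Fp), from replicate 1 to 3 left to right, with mean and SD (n = 3). Footprint groups are apart in all 4 genes, whereas the RNA groups of Zfp961 and Zfp943 overlap.

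The remaining 6 called genes lost their call with the block. Zfp971 rose from 1.32, 1.68 and 1.99 footprint CPM in WT to 4.73, 3.90 and 3.19 in KO, a log2 change of 1.33 (SE 0.19, FDR 0.00711 by edgeR and 0.0702 once blocked). Its groups did not overlap, although it had only 74 footprint reads over the WT libraries and 124 over KO. Zfp933 rose from 6.24, 6.49 and 7.77 CPM to 11.97, 11.5 and 9.33 CPM, a log2 change of 0.74 (SE 0.12, FDR 0.00974 by edgeR and 0.0943 once blocked). Zfp932, whose protein has been described as a repressor of endogenous retroviral elements, had 2.00, 1.79 and 2.37 CPM in WT and 3.34, 3.64 and 2.45 CPM in KO. KO replicate 3 lay just above the highest WT library. Its log2 fold change was 0.73 (SE 0.17, FDR 0.0302 by edgeR and 0.34 once blocked), and leaving out replicate 1 or 2 of either genotype ended the call (FDR 0.0836 to 0.139).

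Zfp942 rose from 11.1, 13.7 and 13.2 footprint CPM in WT to 22.1, 18.1 and 18.7 in KO (log2 fold change 0.64, SE 0.12, FDR 0.0141 by edgeR and 0.0698 once blocked). Zfp945 rose from 12.4, 11.4 and 12.6 CPM to 17.0, 18.3 and 16.4 CPM (0.53, SE 0.07, FDR 0.00585 by edgeR and 0.11 once blocked). Zfp949 rose from 21.9, 21.0 and 20.8 CPM to 28.0, 29.3 and 29.7 CPM (0.44, SE 0.05, FDR 0.00343 by edgeR and 0.0935 once blocked). In each of the 3 the genotypes were apart by more than the range within WT. Apart from Zfp932, all 9 other calls held when any 1 footprint library was left out. Zfp934 was also called without replicate 3 of WT or of KO. With all libraries it was not tested, having 19 footprint reads in WT and 42 in KO. Its entry into those fits can rest on its higher KO reads, so these calls are no support for a rise.

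Among the genes not called, Zfp984 and Zfp952 had the most negative footprint changes. Zfp984 had 2.46, 2.74 and 2.75 CPM in WT and 1.95, 1.62 and 1.72 CPM in KO, a log2 change of -0.59 (SE 0.13, FDR 0.0584 by edgeR and 0.432 once blocked). Its groups did not overlap. In RNA its log2 fold change was 0.09 (edgeR FDR 0.879). Zfp952, the member with the most footprint reads, had 28.0, 24.2 and 26.9 CPM in WT and 21.3, 24.7 and 22.3 CPM in KO (-0.20, SE 0.08, edgeR FDR 0.159). Its groups overlapped. Zfp950, the member with the most RNA reads, had a footprint log2 fold change of 0.25 (SE 0.09, edgeR FDR 0.122), and Zfp954 one of 0.15 (SE 0.11, edgeR FDR 0.383). The remaining 16 tested members had footprint changes from -0.18 (Zfp963) to 0.92 (Zfp931) on the log2 scale, 12 of them above 0, with FDR from 0.067 to 0.992. Zfp934, Zfp970, Zfp976 and Zfp992 had too few footprint reads to be tested.

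In RNA, 1 of the zinc finger genes passed the test between the labelled genotypes. All 34 were tested, and 1 of them, Zfp958, was called higher in the libraries labelled KO, where 3.48% of all 13652 genes were. None was called lower, where 3.43% were, and DESeq2 called Zfp930 alone. At an unadjusted p under 0.05 (edgeR) 1 was lower, where 1613 of all genes were. With the block no member was called, where 0.806% of all genes were called in either direction. Then 3 members, all higher, had an unadjusted p under 0.05 (edgeR). Over all 13652 genes 1326 had one, 667 of them higher. The median log2 fold change was 0.11, against -0.00053 over all genes, and 27 of 34 were above 0, where 49.9% of all genes were. Groups did not overlap in 6 members with KO higher (Zfp930, Zfp933, Zfp938, Zfp944, Zfp948 and Zfp958), against 15.5% of all genes. They did not overlap in 2 with KO lower (Zfp940 and Zfp963), against 15.4%. The count with KO higher is near the share over all genes.

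Zfp933 had 24.2, 23.9 and 19.97 RNA CPM in WT and 29.4, 29.6 and 34.6 CPM in KO (log2 fold change 0.47, SE 0.11, edgeR FDR 0.0545). Zfp963 had 4.61, 4.18 and 3.86 RNA CPM in WT and 2.49, 2.60 and 2.87 CPM in KO, the most negative change of the set (-0.65, SE 0.14, edgeR FDR 0.0843). Its footprints did not separate the genotypes, at 2.06, 1.23 and 2.08 CPM in WT and 1.11, 2.01 and 0.982 CPM in KO. Zfp970 had the next most negative RNA change (-0.20, SE 0.18, edgeR FDR 0.773) on 35 WT and 28 KO reads. The 26 members whose RNA change is not given here had values from -0.17 (Zfp954) to 0.48 (Zfp971), 21 of them above 0, and none was called.

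The members varied together in RNA by library number. WT replicate 3 was the lowest WT library in 28 of the 34 genes and KO replicate 3 the highest KO library in 27. Both held in 26 genes, or 76.5%, against 35.0% of all genes tested. Deviations of WT and KO replicate 3 in RNA-seq correlated at -0.963 across genes. A low WT replicate 3 and a high KO replicate 3 are therefore not separate observations. Summed over the 34, RNA was 519.7, 529 and 397 CPM in WT and 509, 486 and 629 CPM in KO. Without number 3 of both genotypes, a setting chosen after these sums were seen, the median RNA change was -0.20 and no member was called in RNA. The median was also below 0 without WT replicate 3 alone (-0.05) or KO replicate 3 alone (-0.07), which for the same reason are not separate checks. In footprints, where WT replicate 3 was the lowest in 6 of 30 genes, no number stood apart in this way. What makes number 3 differ in RNA was not tested.

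**Figure D3:**
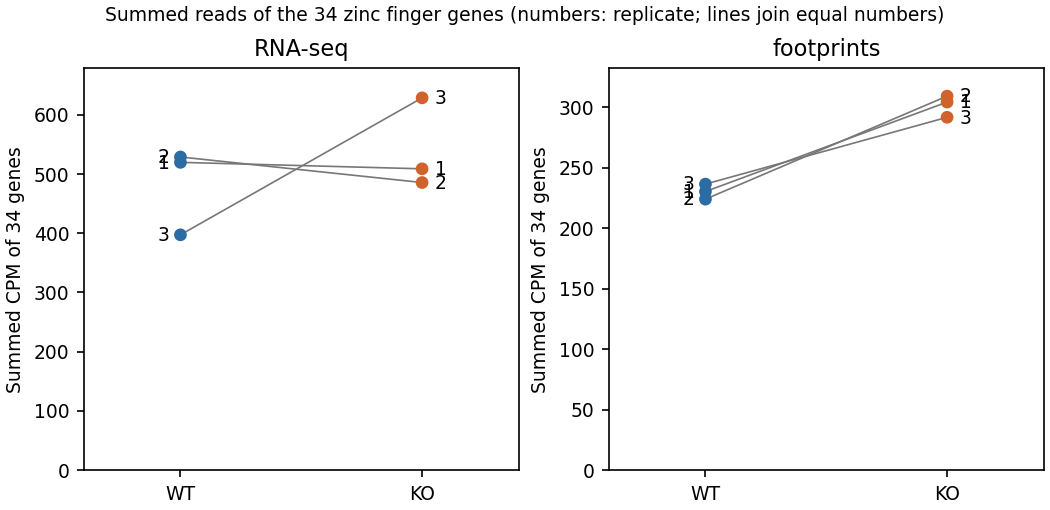
CPM summed over the 34 zinc finger genes in each library of RNA-seq (left) and footprints (right), with lines joining WT and KO libraries of the same number. In RNA-seq only number 3 runs from low WT (397) to high KO (629), whereas in footprints all 3 KO libraries (292 to 309) lie above all WT libraries (224 to 237).

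Of the 30 genes tested in both assays, the footprint change was above the RNA change in 22, where 52.2% of all genes were so, and 24 had the same sign in both, where 65.9% of all genes did. Across these 30 genes Pearson's r between both changes was 0.67 and Spearman's rho 0.58, a description over genes that share the same libraries. In the 10 genes called in footprints the RNA changes ran from 0.10 to 0.78 with a median of 0.23. The footprint changes of these 10, by which they were called, ran from 0.44 to 1.34. The interaction of genotype and assay, a test of the change in footprints beyond that in RNA, called 1 gene, Zfp961, where 0.211% of 11854 genes were called. Its value was 0.69 on the log2 scale (SE 0.10, edgeR FDR 0.0195). This call did not hold with the block within each assay (FDR 0.998), where 2 of all 11854 genes were called. The blocked FDR of 0.998 was that of all 30 members tested, so it does not single out Zfp961. Unadjusted, the blocked p of Zfp961 was 0.00393 (edgeR). Its call in the plain fit was lost on leaving out RNA-seq KO replicate 1 or any 1 footprint library, 7 of 12 such fits (highest FDR 0.0891). DESeq2 made the call too (adjusted p 0.0247).

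Zfp958 was next by FDR, at 0.64 (SE 0.14, FDR 0.0867 by edgeR and 0.998 once blocked). Zfp971 had the largest value, 0.85 (SE 0.33, edgeR FDR 0.28), and Zfp984 the lowest, -0.68 (SE 0.34, edgeR FDR 0.404). The median over the 30 was 0.25, against 0.01 over all genes. Because RNA replicate 3 enters this test, it was also run without that number in RNA-seq. Then 3 genes were called, where 0.581% of all genes were: Zfp943 (0.98, FDR 0.0102), Zfp961 (0.77, FDR 0.0191) and Zfp930 (0.98, FDR 0.0263). Number 3 was left out because of the RNA sums of these same members. Without it their median RNA change went from 0.11 to -0.20, and the RNA change is subtracted in this test. These calls therefore add no separate support.

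**Figure D4:**
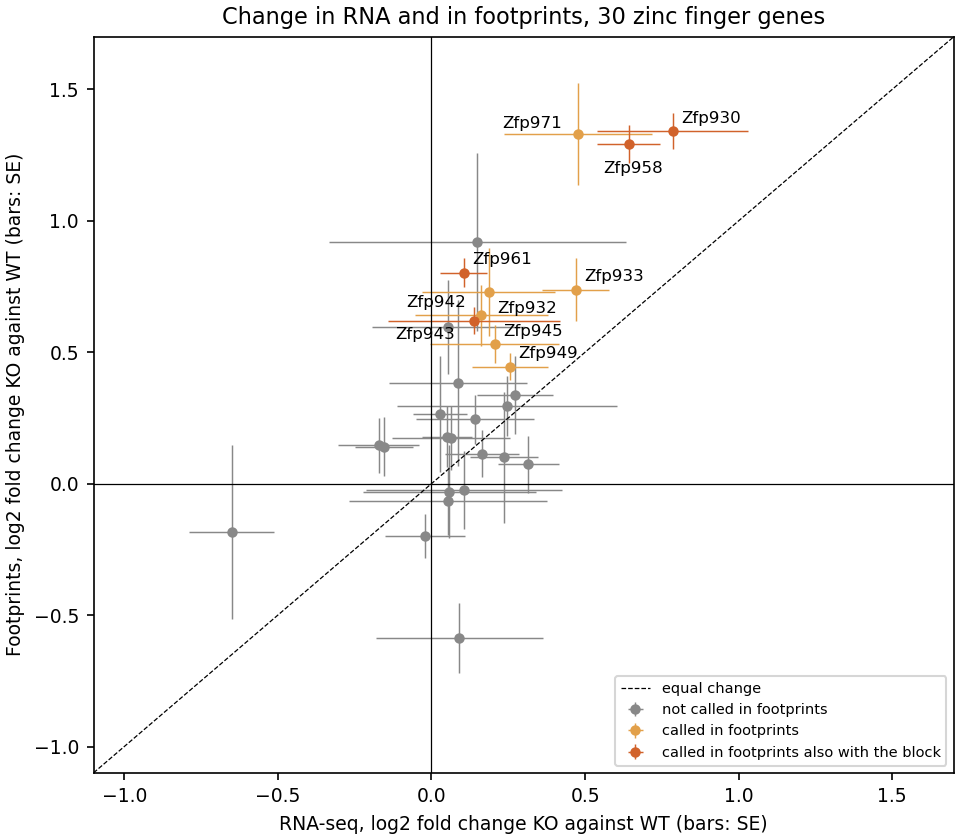
Log2 fold change of KO against WT in footprints (vertical) and in RNA-seq (horizontal), for the 30 genes tested in both. Bars are the SE of the plain fit, and the dashed line marks equal change. The 10 genes called in footprints all lie above the dashed line, and Zfp961 has 0.80 in footprints at 0.10 in RNA. These 10 were picked by their footprint change, which favours that side of the line. The plain interaction test called Zfp961 alone. With the block it called none of them, where 2 of 11854 genes were called.

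In WT, most of the zinc finger genes had a smaller share of the footprint reads than of the RNA reads. All 34 were tested in footprints against RNA of WT. Lower in footprints were 24, where 43.4% of 14385 genes were, and 2 were higher, where 41.9% were. All 34 are in the authors' RNA table, but 29 in that for footprints. The 5 in the RNA table only (Zfp934, Zfp970, Zfp975, Zfp976 and Zfp992) were all lower in footprints. These counts are thus partly fixed by how members were chosen. The median log2 ratio was -0.93, against -0.02 over all genes and -0.32 over 254 genes named Zfp1 to Zfp899, of which 132 were lower and 53 higher. The ratio is taken per gene, so gene length does not enter, but footprints cover only translated sequence while RNA reads cover the whole transcript. Zfp940 had the highest ratio, with 7.95, 7.67 and 8.26 RNA CPM and 8.93, 10.6 and 10.7 footprint CPM in WT (log2 ratio 0.61, SE 0.14, edgeR FDR 0.000797). Zfp938 followed (0.45, SE 0.19, edgeR FDR 0.0448), a call lost in 5 of 6 fits that left out 1 library. Zfp954 came next (0.26, SE 0.12, FDR 0.062 by edgeR and 0.033 once blocked).

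At the other end were genes with RNA but few footprints. Zfp970 had 1.75, 1.81 and 1.52 RNA CPM and 0.229, 0.112 and 0.0948 footprint CPM (log2 ratio -3.10, SE 0.41, edgeR FDR 4.88e-06), on 7 footprint reads in WT. Zfp992 (-2.91, SE 0.50) and Zfp976 (-2.73, SE 0.40) followed, with 9 and 13 footprint reads. Zfp970, Zfp992 and Zfp976 became members through the authors' RNA table only, so their place at this end is partly fixed by that choice. Zfp950, with the most RNA reads of the set, had 69.2, 69.5 and 46.8 RNA CPM but 11.9, 11.5 and 13.5 footprint CPM (-2.06, SE 0.14, edgeR FDR 3.32e-09). Of the 4 genes called in footprints with the block, Zfp930 had a WT ratio of -1.68 and Zfp961 of -0.80, both called, whereas Zfp943 (-0.33, FDR 0.0938 by edgeR and 0.0389 once blocked) was called with the block and Zfp958 (0.02) in neither fit. With the replicate block 27 of the 34 genes were lower and 3 higher, where 43.6% and 42.2% of all genes were.

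**Figure D5:**
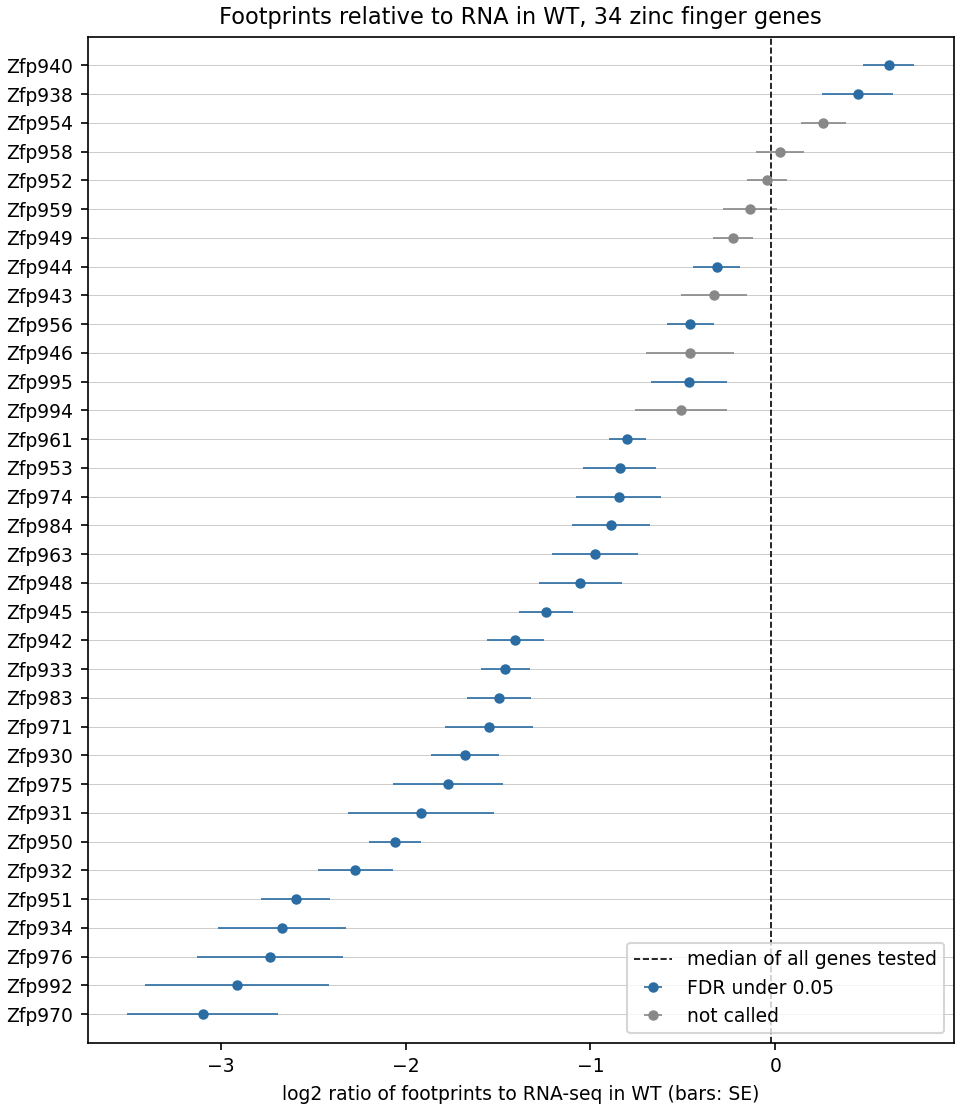
Log2 ratio of footprints to RNA-seq in WT for each of the 34 zinc finger genes, with SE; the dashed line is the median of all genes tested. Most genes lie left of the line, from Zfp940 (0.61) down to Zfp970 (-3.10).

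Zinc finger genes lie in clusters, and this was read from the gene order of RefSeq (GRCm38.p6), in which all 34 genes were found. A gene with a Zfp name was the direct neighbour of 25 of them, and 11 stood next to another member. Zfp942 and Zfp943, which both rose in footprints, are adjacent, and Zfp995 on the other side of Zfp942 was not called (footprint log2 fold change -0.03, edgeR FDR 0.992). Zfp971, which rose, is adjacent to Zfp931 (0.92, SE 0.34, edgeR FDR 0.115). Zfp933, which rose, is adjacent to Zfp984, which had a negative change. Zfp930, Zfp932, Zfp945, Zfp949 and Zfp958, all of which rose, have no Zfp-named gene directly beside them. Zinc finger genes with other names were not looked for, so these genes need not stand alone. Zfp930 lies beside D130040H23Rik, Zfp932 between LOC115490200 and Gm35315, and Zfp945 beside Gm9805. Neighbours of such a cluster can be near-copies, and how reads that map to several genes were counted is not stated, so counts of close copies are uncertain.

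Promoters, from 250 bases before to 50 bases after each RefSeq start (GRCm38.p6), were found for 31 of the 34 genes, 36 promoters in all; Zfp930, Zfp934 and Zfp992 had none in the table. A gene can have several starts whose windows overlap, so each gene was counted once if any of its promoters held a motif. The letters CCAAT, the binding motif of NF-Y, occurred on either strand in 20 of the 31 genes (64.5%), against 41.1% of 27025 genes with a promoter in the table. CCGGAAG, a motif of ETS factors, occurred in 5 of the 31 (16.1%), against 9.93%, and TATAAA in 0, against 15.7%. Per promoter, 69.4% of 36 held CCAAT against 37.4% of 32851, and 25.0% held CCGGAAG against 8.86%, the latter 9 promoters being those of the same 5 genes. The 3 motifs were searched as exact letters, and each match counted even where matches lay over one another. Of the genes called in footprints 4 of 9 held CCAAT, and of those not called 16 of 22. The promoters of the genes that rose with the block and have an entry are shown, 1 start each, with motif matches in capitals.
Zfp943, chr17:21962309-21962608, plus strand: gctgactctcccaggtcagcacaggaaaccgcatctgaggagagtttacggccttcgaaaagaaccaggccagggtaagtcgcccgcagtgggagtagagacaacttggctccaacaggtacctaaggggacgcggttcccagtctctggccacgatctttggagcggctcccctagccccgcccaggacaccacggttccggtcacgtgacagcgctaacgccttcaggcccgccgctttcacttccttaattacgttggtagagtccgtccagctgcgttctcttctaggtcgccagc
Zfp958, chr8:4612920-4613219, plus strand: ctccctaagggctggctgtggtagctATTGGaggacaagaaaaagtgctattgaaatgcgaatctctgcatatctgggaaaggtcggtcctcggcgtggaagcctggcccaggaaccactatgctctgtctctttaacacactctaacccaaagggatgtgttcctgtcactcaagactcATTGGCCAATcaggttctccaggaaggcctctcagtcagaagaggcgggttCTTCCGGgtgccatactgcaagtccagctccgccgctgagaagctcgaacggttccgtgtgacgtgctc
Zfp961, chr8:71950816-71951115, plus strand: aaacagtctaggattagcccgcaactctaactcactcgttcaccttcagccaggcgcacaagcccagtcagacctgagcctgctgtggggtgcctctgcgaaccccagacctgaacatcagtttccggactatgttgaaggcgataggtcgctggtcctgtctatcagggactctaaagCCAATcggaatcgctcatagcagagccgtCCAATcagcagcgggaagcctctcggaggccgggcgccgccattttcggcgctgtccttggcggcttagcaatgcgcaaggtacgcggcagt
Zfp958 holds CCGGAAG and CCAAT, Zfp961 holds CCAAT, and in Zfp943 none of the 3 was found in this window. A match describes letters only; no factor was measured here.

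In the silencing machinery that KRAB zinc finger proteins recruit, 1 gene was called in RNA-seq and 3 in footprints, none with the block. Of 25 listed genes 23 were tested, and the shares of all genes called in either direction were 6.91% in RNA-seq and 17.6% in footprints. In RNA-seq the gene called higher was Mphosph8 of the HUSH silencing complex (log2 fold change 0.35, FDR 0.0276 by edgeR and 0.461 once blocked). In footprints Atf7ip, a partner of Setdb1, rose (0.21, FDR 0.0104 by edgeR and 0.244 once blocked). Trim28, the KRAB corepressor, fell by 0.16 on the log2 scale (WT 855 ± 21.8 CPM, KO 767 ± 21.4 CPM, SD over 3 libraries; FDR 0.0369 by edgeR and 0.402 once blocked). Morc2a, an ATPase that works with HUSH, fell by 0.21 on the log2 scale (FDR 0.00792 by edgeR and 0.25 once blocked). Setdb1 was not called (-0.12, edgeR FDR 0.065). With the block, edgeR left 1 of the listed genes in RNA and 2 in footprints at an unadjusted p under 0.05. Over all genes these were 1326 of 13652 and 2187 of 13509. The list's median was 0.09 in RNA and 0.01 in footprints.

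The other zinc finger genes, from Zfp1 to Zfp899, had 33 higher (12.9%) and 11 lower calls (4.31%) among 255 tested in footprints. Over all genes these shares were 9.25% and 8.34%. Their median was 0.05, and 57.6% of them lay above 0, against 48.4% of all genes. With the block 6 were higher (2.35%) and 1 lower (0.392%), against 1.89% and 1.13% of all genes. In RNA-seq 4 were higher and 4 lower of 254 (1.57% each, against 3.48% and 3.43% of all genes), with a median of 0.02. Whether Zfp900 to Zfp999 genes differ from them was not tested. Markers of other cell types had reads in every list. B cell markers summed to 44.0 to 58.8 footprint CPM in WT and 56.7 to 76.8 in KO, and myeloid markers to 228 to 295 and 263 to 362. NK cell markers summed to 23.8 to 26.3 RNA CPM in WT and 31.1 to 36.1 in KO, and to 136 to 178 and 158 to 208 in footprints. Erythroid markers summed to 69.8 to 82.3 RNA CPM in WT and 42.4 to 52.3 in KO, and fibroblast and endothelial markers to 209 to 213 and 236 to 244. In footprints edgeR called 1 of 6 tested B cell markers and 1 of 6 tested myeloid markers higher, both with the block too. It also called 1 of 7 fibroblast and endothelial markers higher, and 1 of 4 erythroid, 1 of 3 NK cell and 2 of 8 thymic epithelial markers lower, none with the block. Of 13 thymocyte markers 4 were higher and 3 lower in footprints, 1 of them with the block. In RNA-seq 1 of 6 myeloid, 1 of 5 fibroblast and endothelial and 1 of 2 NK cell markers were higher, and 1 of 4 erythroid and 1 of 6 thymic epithelial markers lower, none with the block. Over all genes, edgeR called 17.6% in footprints and 6.91% in RNA-seq in either direction. With the block these were 408 of 13509 and 110 of 13652 genes. The lists are short, so single calls in them are not read as a shift of a cell type. None of these lists had a marker at 0 in every library. Their part in the footprint rise was not tested.

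Symbols in the range also stand on 30 further rows of the count tables that are not in the authors' result tables and so are not members. These rows held 0 to 44 reads over the 6 libraries of an assay. The members themselves held from 63 (Zfp970) to 2601 (Zfp950) reads in RNA-seq and from 13 (Zfp970) to 1907 (Zfp952) in footprints, and together 0.0515% and 0.0259% of reads in genes.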

How the data were processed

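RNA-seq and ribosome footprint libraries of thymocytes (12 libraries, 3 in each of 4 groups) were prepared with a ribosome profiling kit, per the labels' protocols. The authors deposited whole-number counts per gene, which they called adjusted. FastQC, Bowtie2 2.5.1, STAR 2.7.10a, HTSeq 2.0.3 and DESeq2 1.40.2 are named in the submitters' processing notes. The sources used here do not state the genome build, annotation, strand setting or adjustment. The authors' deposited tables of KO against WT gave the symbols and their log2 fold changes and calls; 12 further per-library columns in those tables were not used.

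Rows that name no gene were left out of library sizes; genes held 27.0% to 28.5% of counted reads in RNA-seq and 72.3% to 73.1% in footprints. For each assay separately, edgeR 4.0.16 (R 4.3.3) was run with TMM, filterByExpr (minimum count 10), its quasi-likelihood test for KO relative to WT, and Benjamini-Hochberg adjustment over all genes tested (FDR). Translation was the interaction of genotype and assay over 12 libraries, with TMM within each assay, for genes passing the filter in both assays. A filter over all 12 libraries at once was fitted first and replaced after its result was seen. WT footprints were tested against WT RNA. The code was tested on simulated data. Alternatives were RLE size factors, no filter, DESeq2 1.42.0, FDR under 0.1, a replicate block and leaving out libraries. Each genotype had 3 mice, per the series' design text.

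Genes named are those called for KO against WT or for translation, the 5 with most reads per assay, the 2 most positive and negative changes per assay, and the 3 highest and lowest WT ratios; Zfp931, Zfp934, Zfp944, Zfp948 and Zfp995 were named after their values were seen. The members and lists were chosen with earlier results of these data known. Same-numbered libraries deviated in opposite directions, so the numbers were not taken to pair mice.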

Additional observations from a re-analysis of the deposited data

Results flagged for a closer look

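For Zfp961 the effect of KO in footprints exceeded that in RNA-seq by 0.69 on the log2 scale (edgeR interaction test, FDR 0.0195). With the replicate block within each assay the FDR was 0.998, a value shared by all 30 members tested. Footprints of Zfp961 were higher in KO in 3 of 3 libraries by a log2 fold change of 0.80, whereas its RNA groups overlapped at 0.10.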

How the results depend on the processing

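The 10 calls in footprints ranged from 9 to 11 over leaving out each library, RLE size factors, no filter and DESeq2, and became 12 at an FDR under 0.1 and 4 with the replicate block; their median log2 fold change of 0.28 ranged from 0.27 to 0.38 over single omissions. The 1 call in RNA-seq became 0 with the replicate block, 3 with no filter, 3 at an FDR under 0.1 and 0 to 1 over omissions, and the median of 0.11 ranged from -0.07 to 0.22, or -0.20 without number 3 of both genotypes. The 1 call for translation became 0 with the replicate block, where 2 of 11854 genes were called. The count became 2 at an FDR under 0.1, 0 to 1 over single omissions and 3 without RNA-seq number 3 of both genotypes. It stayed 1 (Zfp961, FDR 0.023) with the filter over all 12 libraries at once. That filter, and leaving out number 3 of both genotypes, were chosen after seeing the data. The causes were not tested. The 11 footprint calls without replicate 3 of WT or of KO include Zfp934, which was not tested with all libraries. Calls in WT footprints against RNA ranged from 23 to 30. The same numbers were not taken to pair mice (correlations of deviations near -0.98), and the replicate block turned no direction of a named gene.

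Uncalled genes changed sign only when libraries were left out. Over single omissions, RNA-seq values ran from -0.023 to 0.29 for Zfp932, -0.039 to 0.29 for Zfp942, -0.13 to 0.30 for Zfp943, -0.037 to 0.23 for Zfp950, -0.093 to 0.088 for Zfp952, -0.33 to 0.22 for Zfp976, -0.076 to 0.34 for Zfp984 and -0.067 to 0.16 for Zfp992. Without number 3 of both genotypes, RNA-seq values that changed sign were -0.20 for Zfp932, -0.22 for Zfp942, -0.36 for Zfp943, -0.13 for Zfp945 (up to 0.36 over single omissions), -0.20 for Zfp950, -0.21 for Zfp984 and -0.20 for Zfp992. In footprints single omissions gave -0.10 to 0.24 for Zfp938 and -0.70 to 0.036 for Zfp963, and for translation -0.35 to 0.00487 for Zfp938 and -0.049 to 0.67 for Zfp963. Depth limits the 4 genes not tested in footprints, each with 61 or fewer reads over its 6 libraries.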
